A study of Mnemiopsis leidyi with 31 samples.

Results

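The 150 transcripts described here come from embryos of the comb jelly Mnemiopsis leidyi and were selected on measured levels, low up to 7 hours post fertilization (hpf) and high at 8 and 9 hpf, in the 19 libraries whose codes start with 2013. CPM stands for counts scaled to a library total of 1000000. A transcript was taken when it was under 1 CPM in both 1 hpf libraries, when its mean was under 2 CPM at 2-3, at 4-5 and at 6-7 hpf, and when its mean over the 4 libraries of 8-9 hpf was at least 5 CPM. Of 31067 transcript records, 279 (0.898%) met this rule, and the 150 with the highest mean at 8-9 hpf were kept. Their low levels up to 7 hpf and their high levels at 8-9 hpf in these 19 libraries follow from that choice and are given as a description, with no test.

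In animal embryos, the first divisions run on messenger RNA laid down in the egg, and transcription from the embryo's own genome begins later. Transcripts that are missing from the egg and appear in development are called zygotic. Ctenophores cleave in a fixed pattern, gastrulate early and then build the comb plates, tentacle bulbs and apical sense organ of a swimming larva called the cydippid, so late transcripts are measured while these organs form. The identifiers of the count table carry no gene names, and 0 of 31067 were found in the gene table of another assembly (crg_Mlei_v2), which holds 19625 genes. No role can therefore be given for any of the 150, the organ or cell type in which each is used is unknown, and no marker of the labelled tissue could be checked.

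The embryos came from animals caught in the wild, and each library held polyadenylated RNA from a pool of whole embryos of 1 hour between 1 and 9 hpf, with no treatment and no mutant. There were 31 libraries, 19 with codes of 2013 and 12 with codes of 2012. No label says which libraries came from the same spawning, so that p-values measure only the spread between these libraries, which may be technical. Codes that share their start (2013_2, for example, in 2013_21 and 2013_28) are called a code series here, with no claim about what they share. In pools of whole embryos, fewer cells with a transcript and less of it per cell cannot be told apart.

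Total counts ran from 17608264 to 66728425 in the libraries of 2013 and from 36985654 to 116632427 in those of 2012. Several libraries of 2012 stand apart, and the results below are given with and without them. In 0 records did 9 hpf 2012_37 hold more counts than 1 hpf 2012_N7, and in 0 records did 5 hpf 2012_14 hold more than 4 hpf 2012_N4, so each larger column may contain the smaller one. The libraries labelled 2 hpf 2012_N6 and 6 hpf 2012_N2 carried the late transcripts at the level of 8 hpf libraries.

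In the libraries of 2013, the median level of the 150 transcripts was 0.0553 and 0.0257 CPM in the 2 libraries of 1 hpf and lay between 0 and 0.0965 CPM in the 3 of 2 hpf. It was 0.0471 and 0.183 CPM at 3 hpf, 0.132 and 0.507 CPM at 4 hpf, and 0.114 CPM in the single 5 hpf library. At 6 hpf it was 0.220 CPM in 2013_26 and 0.813 CPM in 2013_46. At 7 hpf it was 0.553 CPM in 2013_17, 0.358 CPM in 2013_27 and 3.14 CPM in 2013_47. The last was above the medians of 2.57 and 2.89 CPM in the 8 hpf libraries 2013_18 and 2013_28.

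At 8 hpf the median was 2.57 CPM in 2013_18, 2.89 CPM in 2013_28 and 12.5 CPM in 2013_48, and in the single 9 hpf library, 2013_49, it was 23.6 CPM. The libraries of 8 hpf thus fell apart into 2 low ones and a high one. Together the 150 transcripts took 0.487% of the counts at 9 hpf. Their mean share was 0.105% at 8 hpf, with an SD of 0.105% over 3 libraries. The 3 libraries of 7 hpf averaged 0.0225% (SD 0.0227%), while both of 1 hpf averaged 0.00207% (SD 0.000436%). The spread at 8 hpf was as large as its mean.

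**Figure D1:**
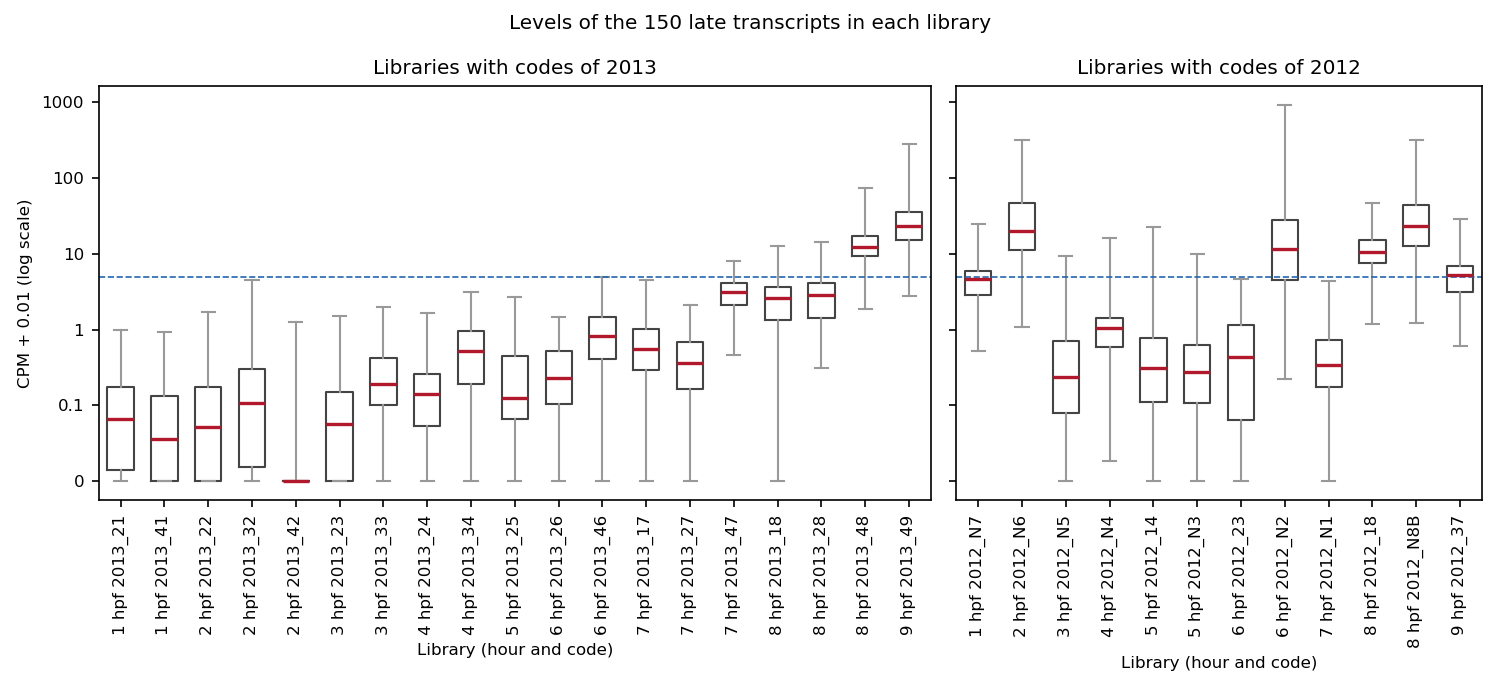
Level of the 150 late transcripts in each of the 31 libraries, as CPM + 0.01 on a log scale. Boxes span the quartiles, the red line is the median, whiskers reach the lowest and highest transcript, and the dashed line marks 5 CPM. The medians of the 2013 libraries stay under 1 CPM up to 7 hpf except in 2013_47 (3.14 CPM), while in 2012 the libraries labelled 1 hpf 2012_N7, 2 hpf 2012_N6 and 6 hpf 2012_N2 stand at 4.72, 20.3 and 11.5 CPM.

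Most of the transcripts had some counts at 1 hpf, and whether these came from RNA of the egg was not tested. Over both 1 hpf libraries of 2013, 16 of the 150 had no count, 49 had between 1 and 3 counts and 85 had more, up to 71, with a median of 4 counts. A count of 0 over these 2 libraries allows a level of up to 0.0400 CPM (3 counts, counting error only). In no library of 2013 of 1 to 5 hpf did 109 of the 150 reach 1 CPM, and 137 stayed under 2 CPM there.

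The description "only at 8-9 hpf" holds for the means that chose the transcripts but not for each library. At 7 hpf, 140 of the 150 were at 1 CPM or more in 2013_47, against 40 in 2013_17 and 13 in 2013_27. Of all records, 37.9%, 34.8% and 33.7% were at that level in these libraries. In 2013_47, 113 reached 2 CPM and 22 reached 5 CPM, where 25.4% of all records reached 5 CPM. In that library and in no other library of 6-7 hpf, 91 were at 2 CPM or more. For 88 transcripts the level in 7 hpf 2013_47 was at or above the mean of the 8 hpf libraries 2013_18 and 2013_28. The counts of 91 and 88 were not computed over all records, and all these libraries entered the choice, so they are a description only. All 150 are called late transcripts below.

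Most of the level at 8-9 hpf came from 2 libraries of one code series. Of the summed CPM over the 4 libraries of 8-9 hpf, 88.9% came from 2013_49 and 2013_48, and 60.7% from 2013_49 alone. At 5 CPM or more, 105 transcripts stood in both 2013_48 and 2013_49 and in neither of the others, 10 in 2013_49 alone and 1 in 2013_48 alone. The last is Mle_022011. The mean at 8-9 hpf that chose the transcripts favours those high in any of these libraries. The same counts over all records were not computed, so nothing is read from these patterns. Without 9 hpf 2013_49 the rule was met by 150 transcripts in place of 279, of which 143 were among the 279.

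At 5 CPM or more in all 4 libraries were 5 transcripts, named after their values were seen: Mle_014038, Mle_007517, Mle_003839, Mle_027239 and Mle_021656. Mle_014038 (2384 bases) stood at 48.1 CPM at 9 hpf and at 6.91, 8.15 and 24.8 CPM in the 8 hpf libraries 2013_18, 2013_28 and 2013_48. Mle_021656 (755 bases) was the most even of the 150, at 14.3 CPM at 9 hpf and at 8.10, 7.13 and 9.80 CPM in the same 8 hpf libraries, a coefficient of variation of 32.2% over the 4. The next most even, Mle_019292 (608 bases), stood at 11.5 CPM at 9 hpf and at 3.67, 9.88 and 11.0 CPM at 8 hpf (40.2%).

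At 8 hpf, 148 of the 150 were higher in 2013_48 than in both 2013_18 and 2013_28, where 60.6% of the 29821 transcripts counted in these libraries were, with a median ratio of 4.78 to the mean of the 2 (quartiles 3.24 and 7.95). All 3 libraries entered the choice, so nothing is read from that count. From 8 to 9 hpf within code series 2013_4, 118 were higher in 2013_49 than in 2013_48, with a median ratio of 1.70 (quartiles 1.07 and 3.58), and the ratio ran from 0.127 to 46.1 among the 150. All 118 were above all 3 libraries of 8 hpf as well, where 28.4% of the 30158 transcripts counted in these libraries were. The choice by the mean at 8-9 hpf favours transcripts that are high in the single 9 hpf library, so nothing is read from that difference.

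The highest mean at 8-9 hpf, 74.8 CPM, belonged to Mle_028540 (1006 bases). It stood at 286 CPM at 9 hpf, and at 1.65, 1.66 and 9.42 CPM in the 8 hpf libraries 2013_18, 2013_28 and 2013_48. At 7 hpf it was at 0.608, 0.435 and 6.07 CPM in 2013_17, 2013_27 and 2013_47, and at 6 hpf at 0.283 and 1.38 CPM. It was thus high in 1 library of 2013 and had 2 counts over both 1 hpf libraries. In the libraries of 2012 it was at 5.57 CPM at 9 hpf, at 13.4 and 176 CPM at 8 hpf in 2012_18 and 2012_N8B, at 932 CPM in the library labelled 6 hpf 2012_N2 and at 294 CPM in that labelled 2 hpf 2012_N6. The next highest, Mle_022862 (2192 bases), had a mean of 52.3 CPM, with 128 CPM at 9 hpf and 2.60, 3.67 and 75.1 CPM at 8 hpf. It differed from Mle_028540 in being high in both libraries of code series 2013_4.

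The transcripts with the highest and the lowest level at 9 hpf relative to 8 hpf, as the ratio of CPM + 1 at 9 hpf to that of the mean at 8 hpf, differed widely. Mle_007045 (1725 bases) stood at 137 CPM at 9 hpf, against 1.51 ± 1.27 CPM at 8 hpf (SD, n = 3), a ratio of 55.0, and Mle_028540 followed with 54.8. At the other end, Mle_006464 (436 bases) stood at 2.76 CPM at 9 hpf, against 13.02 ± 8.67 CPM at 8 hpf (SD, n = 3), a ratio of 0.269. Mle_022011 (918 bases) stood at 3.93 CPM at 9 hpf, against 10.5 ± 12.7 CPM at 8 hpf (SD, n = 3), a ratio of 0.429. With 1 library of 9 hpf, these differences have no replicate check within 2013.

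**Figure D2:**
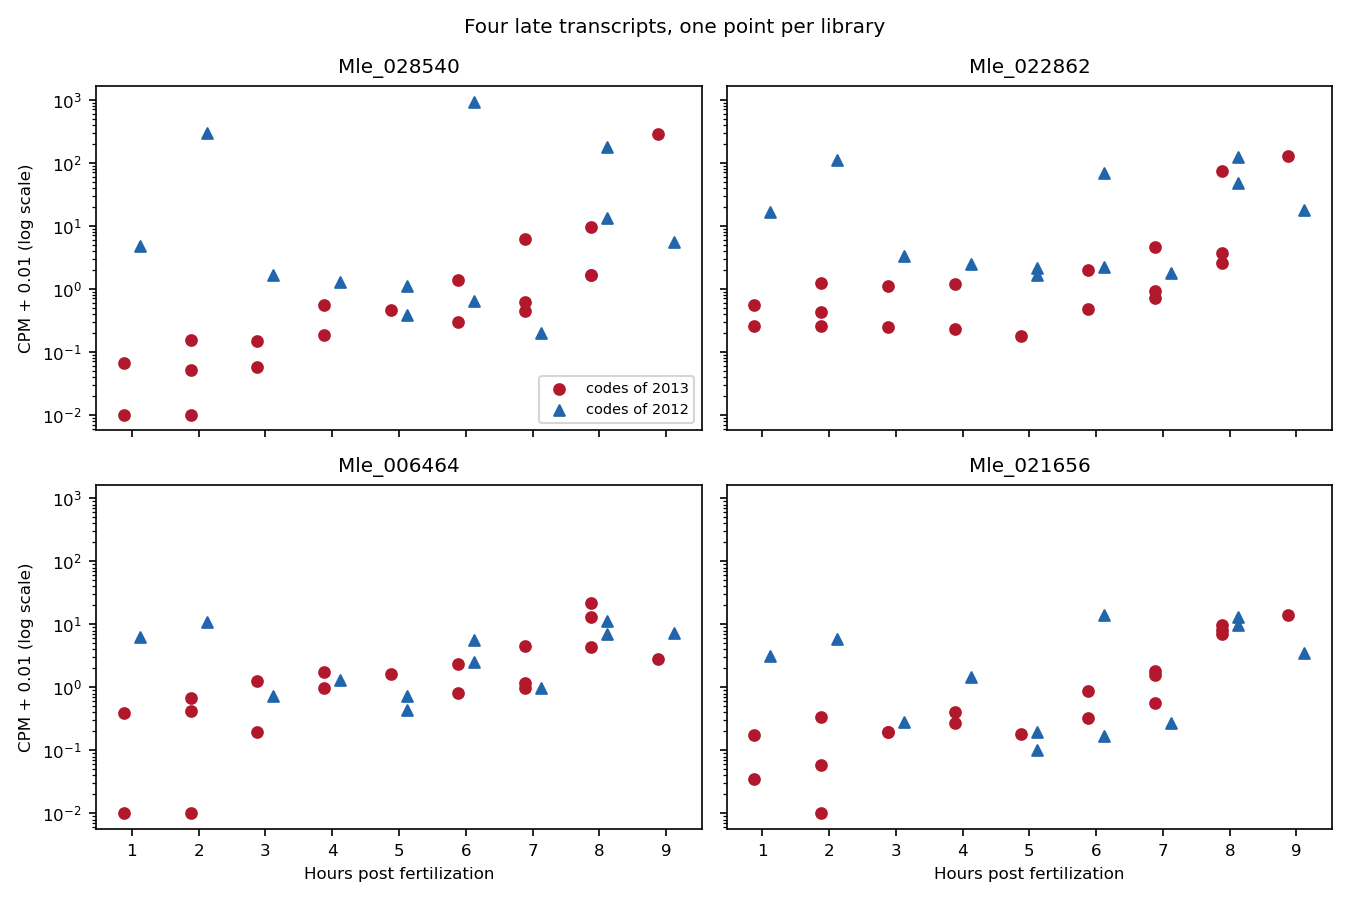
Levels of 4 late transcripts against the hour, as CPM + 0.01 on a log scale, with 1 point per library (circles, codes of 2013; triangles, codes of 2012). In the libraries of 2013 Mle_028540 reaches 286 CPM at 9 hpf, Mle_006464 is lower at 9 hpf (2.76 CPM) than at 8 hpf, and Mle_021656 is at 7.13 to 14.3 CPM over 8 and 9 hpf. The triangles at 2 and 6 hpf that stand with the late points are 2012_N6 and 2012_N2.

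At the lower bound of the choice, the members just inside were Mle_015766 and Mle_007813, with means of 7.09 and 7.07 CPM at 8-9 hpf. Just outside, by the limit on the number alone, were Mle_015666 and Mle_022668 with 7.06 and 7.02 CPM. The lowest of the 279 had 5.01 CPM, and the highest transcript that missed the level had 4.99 CPM. The bound of 5 CPM thus cut through a continuous range.

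Transcripts chosen anew without 1 code series were read in that series, and the late course recurred in direction but not at the same levels. The rule was applied to the libraries of 2013 without code series 2013_2, which met it for 271 transcripts, and the 150 highest, 93 of them among the late transcripts, were read in that series, which has 1 library at each hour up to 8 hpf. In that series 146 of the 150 were higher at 8 hpf than at any earlier hour, against 38.9% of the 29084 transcripts counted there. Their median was 1.73 CPM at 8 hpf, against 0.249 CPM at 7 hpf, 0.157 CPM at 6 hpf and 0.0553 CPM at 1 hpf. At 8 hpf 8 of them reached 5 CPM, against 27.4% of all records, and 7 did so after staying under 2 CPM at every earlier hour, a share of 4.67% against 0.415% of all 31067 records.

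The reverse reading gave the same direction at an earlier hour. Without code series 2013_4, 93 transcripts met the rule, and 17 of them were among the late transcripts. That choice had 8 hpf 2013_18 and 2013_28 as its only late libraries and none of 9 hpf. In 2013_4, all 93 had a mean over 8 and 9 hpf above each library of 1, 2, 6 and 7 hpf, against 62.9% of the 29856 transcripts counted there, and 91 reached 5 CPM at 8-9 hpf, against 31.3% of all records. Their medians were 41.7 CPM at 9 hpf, 20.7 CPM at 8 hpf, 8.09 CPM at 7 hpf, 2.32 CPM at 6 hpf and 0 CPM at 2 hpf. With 8.09 CPM already at 7 hpf, only 2 of the 93 were below 2 CPM in every library of 7 hpf or earlier and reached 5 CPM afterwards, a share of 2.15% against 1.06% of all records. The 2, chosen after their values were seen, were Mle_021656 (755 bases), at 14.3 CPM at 9 hpf, 9.80 CPM at 8 hpf and 1.83 CPM at 7 hpf, and Mle_022210 (1075 bases), at 15.2, 12.3 and 1.604 CPM. Libraries of code series 2013_4 stood higher at 6, 7 and 8 hpf than those of 2013_2, and whether spawning, staging or preparation differed between the series was not tested.

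The 12 libraries of 2012 played no part in the choice and allow a test. Their medians were 5.30 CPM at 9 hpf in 2012_37, and 10.7 and 23.7 CPM at 8 hpf in 2012_18 and 2012_N8B. At 6-7 hpf they were 0.433 CPM in 2012_23, 11.5 CPM in 2012_N2 and 0.335 CPM in 7 hpf 2012_N1. At 3 to 5 hpf they were 0.226, 1.03, 0.305 and 0.267 CPM in 2012_N5, 2012_N4, 2012_14 and 2012_N3. The libraries labelled 2 hpf 2012_N6 and 1 hpf 2012_N7 stood at 20.3 and 4.72 CPM. The 3 late libraries were therefore high, as were 3 of the 9 with earlier labels.

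As labelled, no late transcript passed the threshold between 8-9 and 6-7 hpf in 2012. edgeR's quasi-likelihood test, with Benjamini-Hochberg adjustment over 26689 transcripts and a threshold of 0.05, called 0 of the 150, and 0 of all transcripts (0%) were called higher. The lowest adjusted p among the 150 was 0.591. The level was higher at 8-9 hpf for 120 of the 150, with a median log2 fold change of 1.11, where 44.2% of all tested transcripts were higher and their median was -0.19. An unadjusted p under 0.05 was found for 23 late transcripts that were higher, against 2.15% of all tested. It was found for 1 that was lower, against 1464 of all 26689 tested. DESeq2 called 2 of the 150 higher, Mle_006170 and Mle_029621, against 0.161% of all tested.

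Mle_006170 (656 bases) had the smallest p of the 150. It stood at 6.55 CPM at 9 hpf and at 17.4 and 31.3 CPM at 8 hpf, against 0.0541, 0.691 and 0.168 CPM in the 3 libraries of 6-7 hpf. The groups did not overlap (log2 fold change 5.40, SE 1.47, adjusted p = 0.591, edgeR; adjusted p = 0.00672, DESeq2). It was at 59.2 CPM in the library labelled 2 hpf 2012_N6 and at 5.53 CPM in 1 hpf 2012_N7. Mle_029621 (1163 bases) stood at 6.39 CPM at 9 hpf and at 10.7 and 10.2 CPM at 8 hpf, against 0.135, 0.538 and 0.0718 CPM at 6-7 hpf (log2 fold change 4.75, SE 1.35, adjusted p = 0.591, edgeR; adjusted p = 0.0147, DESeq2). Both were low in 6 hpf 2012_N2, unlike most of the 150.

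The library labelled 6 hpf 2012_N2 carried the late transcripts far above the other libraries of 6-7 hpf. It held 142 of the 150 at 1 CPM or more and 108 at 5 CPM or more, against 47.2% and 32.5% of all records. In 6 hpf 2012_23 these were 45 and 0 of the 150, against 39.0% and 25.4% of all records. In 2012_N2, 146 were higher than in both other libraries of 6-7 hpf, where 55.0% of all counted transcripts were. In 22 of the 150 it was the highest of all 31 libraries, as in 12.3% of all transcripts, and in 28 the highest was 2 hpf 2012_N6, as in 9.05%. The 1 transcript with an unadjusted p under 0.05 that was lower at 8-9 hpf, Mle_028244 (591 bases, chosen after its values were seen), stood at 1.97 CPM at 9 hpf and at 3.31 and 11.98 CPM at 8 hpf, against 0.811, 244 and 1.10 CPM in 2012_23, 2012_N2 and 2012_N1 (log2 fold change -4.18, SE 1.66, adjusted p = 0.591, edgeR). It was also high, at 70.8 CPM, in 9 hpf 2013_49.

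Without 2012_N2 all 150 late transcripts were higher at 8-9 hpf than at 6-7 hpf, as were 61.1% of all tested. Their median log2 fold change was 4.82, against 0.55 for all tested, and 117 had an unadjusted p under 0.05, against 11.6% of all tested. After adjustment edgeR still called 0 of the 150, and 0 of all 26323 tested were called higher. The 3 libraries of 8-9 hpf were above all those of 6-7 hpf for 40 of the 150 with 2012_N2, where 21.2% of all counted transcripts were, and for 144 without it, where 44.9% were. The late transcripts were high in 2012_N2, so leaving it out by itself raises their difference. These values are therefore not read as an independent test.

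Leaving out 1 hpf 2012_N7, 2 hpf 2012_N6, 4 hpf 2012_N4, 6 hpf 2012_N2 and 7 hpf 2012_N1 together, an alternative chosen after seeing the data, edgeR called 105 of the 150 higher at 8-9 hpf than at 6-7 hpf and 0 lower, against 6.86% of the 24962 transcripts tested. The median log2 fold change of the 150 was then 5.13, and that of all tested was 0.68. Only 1 library of 6-7 hpf (2012_23) and 1 of 2-3 hpf (2012_N5) remained, assumed to vary like the other periods. The late transcripts were low in 7 hpf 2012_N1, with a median of 0.335 CPM. Its Spearman's rho over the 150 was between 0.536 and 0.721 with the libraries of 3 to 5 hpf of 2012. With 6 hpf 2012_23 and 6 hpf 2012_N2 it was 0.336 and 0.344. Whether its label is right was not tested. Without 2012_N2 alone edgeR called 0 of the 150, so the calls here rest on the other libraries left out as well. The late transcripts were high in 2012_N2, so these calls are not read as an independent test.

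Against 2-5 hpf, the libraries of 8-9 hpf of 2012 gave the same split between labelled and reduced sets. As labelled, edgeR called 0 of the 150 and 0 of all transcripts (0%) higher, and the lowest adjusted p was 0.337. All 150 were higher at 8-9 hpf, as were 63.4% of all tested. The median log2 fold change was 2.19, against 0.78 for all tested, and 19 of the 150 had an unadjusted p under 0.05, against 5.23% of all tested. DESeq2 called 1, Mle_003812, against 0.202% of all tested. Without 2 hpf 2012_N6 the median log2 fold change was 5.04, against 2.05 for all tested. Of the 150, 130 had an unadjusted p under 0.05, against 39.2% of all tested. After adjustment edgeR called 0 of the 150 and 0 of all 26142 tested, so this fit called no transcript at all.

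Mle_003812 (2666 bases) stood at 6.53 CPM at 9 hpf and at 17.1 and 11.3 CPM at 8 hpf, against 4.65 CPM in 2 hpf 2012_N6 and between 0.0696 and 0.823 CPM in the 4 libraries of 3 to 5 hpf. The late libraries lay above all 5 (log2 fold change 3.25, SE 0.97, adjusted p = 0.337, edgeR; adjusted p = 0.0482, DESeq2). Mle_024918 (1798 bases) followed, at 5.42 CPM at 9 hpf and 8.32 and 4.11 CPM at 8 hpf, against 1.599 CPM in 2012_N6 and between 0.0232 and 0.797 CPM at 3 to 5 hpf (log2 fold change 3.29, SE 1.12, adjusted p = 0.337, edgeR). These 2 were among the few that were low in 2012_N6.

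With 1 hpf 2012_N7, 2 hpf 2012_N6, 4 hpf 2012_N4 and 7 hpf 2012_N1 left out, edgeR called 116 of the 150 higher at 8-9 than at 2-5 hpf, against 35.8% of all tested, and with 6 hpf 2012_N2 left out as well it called 147, against 51.4%. Both fits left out 2 hpf 2012_N6, where the median of the late transcripts was 20.3 CPM. In the libraries of 3-5 hpf it was between 0.226 and 1.03 CPM. Leaving 2012_N6 out by itself raises the difference for these transcripts, so these counts are not read as an independent test. Every library of 8-9 hpf was above every library of 3-5 hpf for 146 of the 150, where 51.9% of all counted transcripts were. With 2 hpf 2012_N6 among the earlier libraries this held for 6 of the 150, where 11.8% were.

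**Figure D3:**
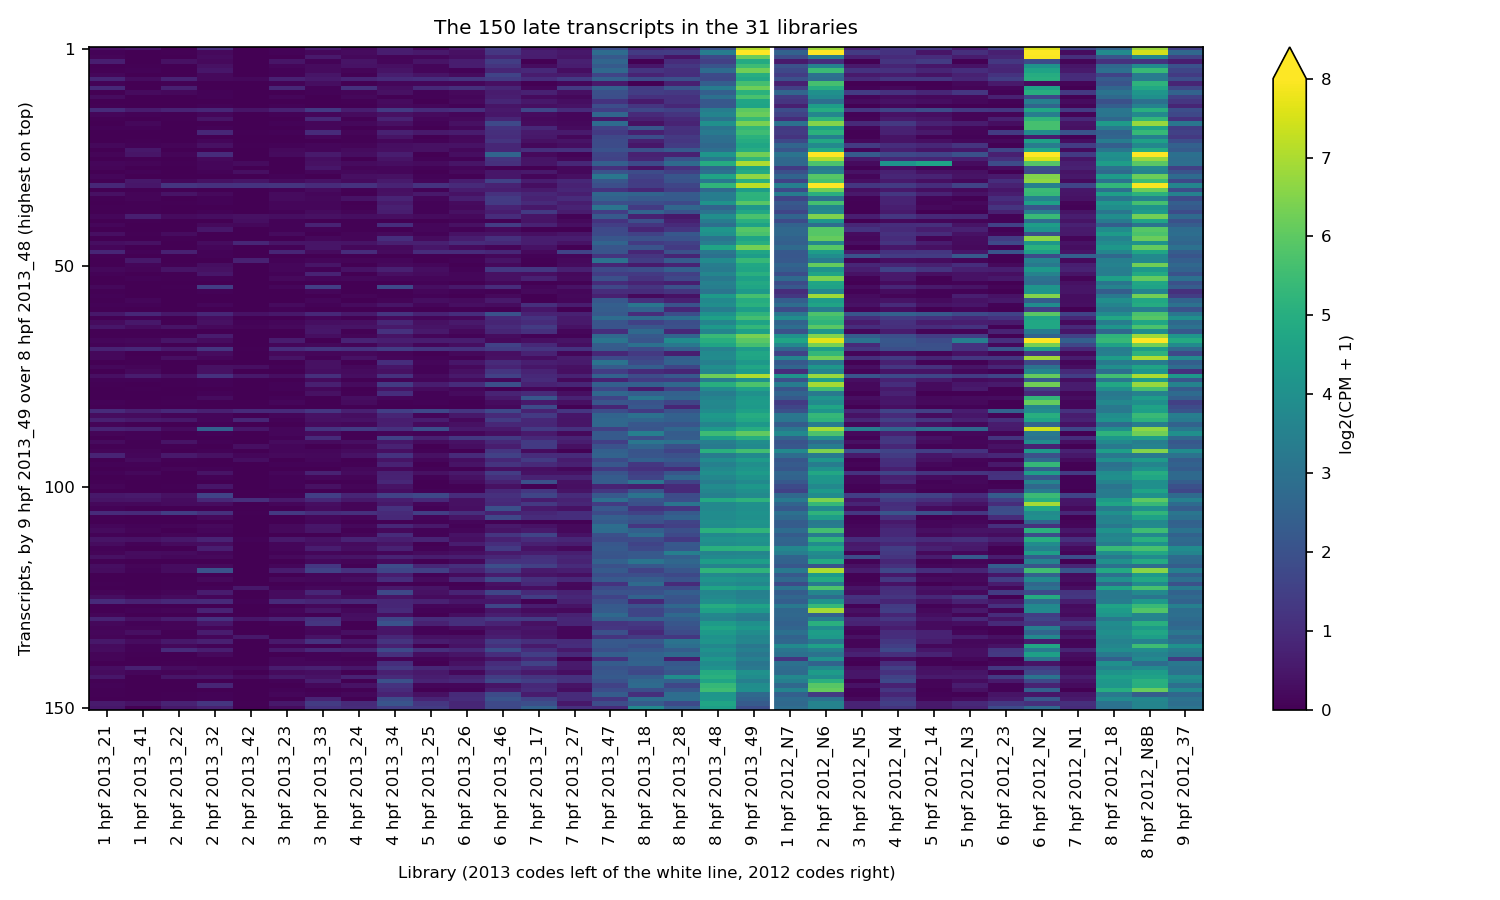
Levels of the 150 late transcripts (rows, ordered by the ratio of 9 hpf 2013_49 to 8 hpf 2013_48) in the 31 libraries (columns, 2013 left of the white line and 2012 right of it), as log2(CPM + 1), with values above 8 drawn in the top colour. Column 2 hpf 2012_N6 is close to 8 hpf 2012_N8B (medians of 20.3 and 23.7 CPM) and 6 hpf 2012_N2 is less bright (11.5 CPM), while 5 hpf 2012_14, 5 hpf 2012_N3 and 7 hpf 2012_N1 are as dark as the early libraries of 2013.

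In the library labelled 2 hpf 2012_N6 all 150 late transcripts were at 1 CPM or more and 145 at 5 CPM or more, while in the 3 libraries of 2 hpf of 2013 none reached 5 CPM. Of all records, 47.4% and 32.1% reached these levels in 2012_N6. The levels there were close to those of 8 hpf 2012_N8B. For 147 of the 150 the 2 libraries were within 2 times of each other, as were 92.4% of all transcripts at 5 CPM or more in 2012_N8B, with a median ratio of 0.917. Spearman's rho over the 150 between these 2 libraries was 0.967, the other libraries most like 2012_N6 being 9 hpf 2013_49 (0.561) and 8 hpf 2012_18 (0.555). Transcripts of one library share its depth and composition, so these values describe the libraries only.

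The 2 transcripts with the highest mean over the 5 libraries of 2-5 hpf of 2012 were Mle_030764 and Mle_010218, and both owed it to 2012_N6. Mle_030764 (2365 bases) was at 321 CPM in 2012_N6 and between 2.06 and 3.88 CPM in the 4 libraries of 3 to 5 hpf, with 322 CPM in 8 hpf 2012_N8B and 549 CPM in 6 hpf 2012_N2. Mle_010218 (882 bases) was at 299 CPM in 2012_N6 and between 1.07 and 1.97 CPM at 3 to 5 hpf, with 244 CPM in 2012_N8B but 9.99 CPM in 2012_N2. The late transcripts were thus not equally high in 2012_N2.

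The library labelled 1 hpf 2012_N7 held 147 of the 150 at 1 CPM or more, against 41.5% of all records. Shares over all records after the subtractions below were not computed. After the counts of 9 hpf 2012_37 were taken off, the median was 0.363 CPM and 48 were at 1 CPM or more, up to 10.7 CPM. In 4 hpf 2012_N4 the median was 1.03 CPM as deposited and 2.06 CPM after the counts of 5 hpf 2012_14 were taken off, with 115 at 1 CPM or more and 10 at 5 CPM or more.

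Libraries of 9 hpf stood on opposite sides of 8 hpf in the 2 years. In 2013 the 150 took 0.487% of the counts at 9 hpf, against between 0.0428% and 0.226% at 8 hpf. In 2012 they took 0.0885% at 9 hpf, against 0.191% and 0.584% at 8 hpf. In 145 of the 150 the level in 9 hpf 2012_37 was below both 8 hpf libraries of 2012, where 52.1% of all transcripts counted in these were. With 1 library of 9 hpf in each year, this difference was not tested.

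The split of the transcripts by their highest library of 2013 was read in the libraries of 2012. The 118 that were highest in 9 hpf 2013_49 had a median ratio of 2.56 between the 8 hpf libraries 2012_N8B and 2012_18, and 79 of them (66.9%) were at least 2 times higher in 2012_N8B. The 32 that were highest in 8 hpf 2013_48 had a median ratio of 1.65, and 10 of them (31.2%) were at least 2 times higher. The same share over all transcripts was not computed, so these counts compare the 2 groups only. In 6 hpf 2012_N2 the 118 had a median of 15.5 CPM, against 5.27 CPM for the 32. At 5 CPM or more there were 91 (77.1%) of the 118 and 17 (53.1%) of the 32, against 32.5% of all records. Over the 150, the ratio of 2013_49 to 2013_48 and that of 2012_N8B to 2012_18 had a Spearman's rho of 0.526, against 0.403 over the 9377 transcripts at 5 CPM or more at 8-9 hpf. Between 9 hpf 2012_37 and 9 hpf 2013_49 the levels of the 150 had a rho of -0.077, and between 8 hpf 2012_18 and 8 hpf 2013_48 one of 0.739. These values are a description, as transcripts are not independent replicates and share their libraries.

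**Figure D4:**
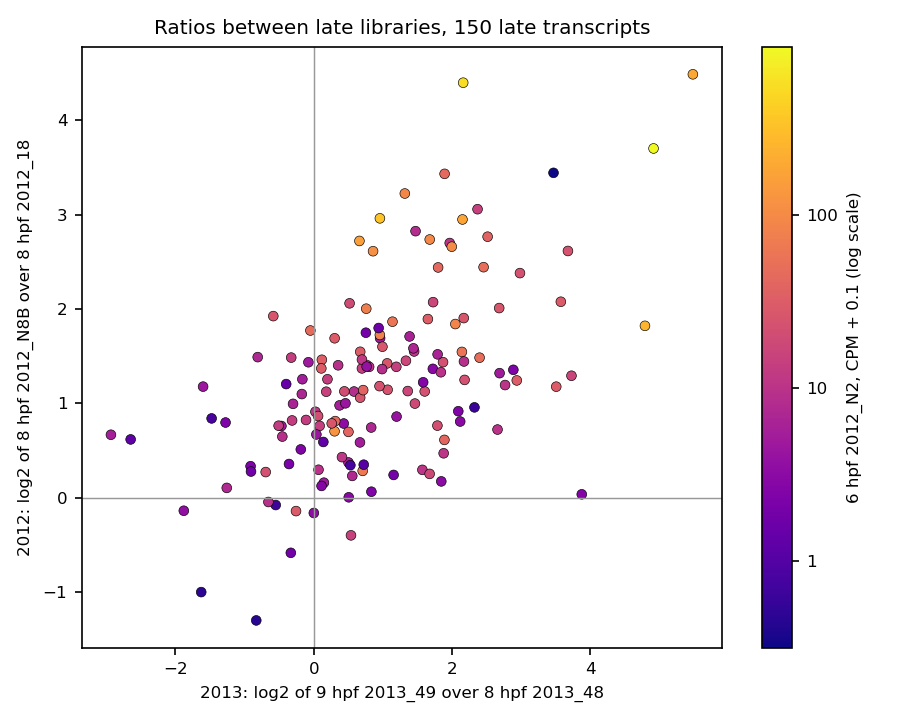
Each point is 1 of the 150 late transcripts, placed by the log2 ratio of 9 hpf 2013_49 to 8 hpf 2013_48 (horizontal) and of 8 hpf 2012_N8B to 8 hpf 2012_18 (vertical), both on CPM + 0.1, and coloured by its level in 6 hpf 2012_N2 as CPM + 0.1. The points lean upwards to the right (Spearman's rho 0.526, n = 150). Most of the 150 lie above 0 on each axis, not only those high in 2012_N2, and the choice favours transcripts that are high in 2013_49.

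Likeness of course was measured as Pearson's r of log2(CPM + 1) with the median of the 150 over the 19 libraries of 2013. It lay between 0.683 and 0.993 among the 150, with a median of 0.961, and 136 were at 0.9 or more. Among the 30624 other transcripts with a value, 1422 (4.64%) were at 0.9 or more, of which 97 met the rule and lay below the 150 highest. The most alike of the others were Mle_016086 (421 bases, r = 0.994) and Mle_017061 (2425 bases, r = 0.993). Mle_016086 had no count at 1 hpf and stood at 14.6 CPM at 9 hpf and at 1.69, 1.73 and 6.44 CPM at 8 hpf, so that its mean of 6.11 CPM fell short of the 150 only in level. Mle_017061, at 9.32 CPM at 9 hpf and 1.496, 1.56 and 6.44 CPM at 8 hpf, had a mean of 4.70 CPM. The late course is thus shared by many transcripts that the thresholds did not take, and r was computed on the libraries that made the choice.

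In length, which the rule did not use, the late transcripts had a median of 2129 bases (quartiles 1348 and 2682), against 1078 bases (581 and 1978) for all 31067 records. Of the 150, 20 (13.3%) were under 1000 bases, against 46.8% of all records. The 9377 transcripts with a mean of at least 5 CPM at 8-9 hpf had a median of 2258 bases (quartiles 1509 and 3320), so the late ones were not longer than others counted at that level. CPM favours long records. The longest were Mle_011493 (7502 bases) and Mle_008712 (7303 bases), with means of 11.0 and 9.16 CPM at 8-9 hpf, and the shortest Mle_011615 (312 bases) and Mle_004253 (315 bases), with 11.7 and 27.4 CPM.

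Per length, as CPM per kilobase of the record (RPKM), the late transcripts were of modest level. Their median over the 4 libraries of 8-9 hpf was 5.98 RPKM, with a range of 1.23 to 86.9 RPKM, against a median of 15.5 RPKM for all 9377 transcripts at 5 CPM or more there. The highest per length was Mle_004253 and Mle_028540 followed with 74.3 RPKM. The longest, Mle_011493, stood at 1.47 RPKM.

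The nearest comparable set held the 140 transcripts with the same limits up to 5 hpf and a mean of at least 5 CPM both at 6-7 and at 8-9 hpf. Their values in 2013 follow from that choice too. In the libraries of 2012 the late transcripts had a median of 0.433 CPM in 6 hpf 2012_23, against 3.83 CPM for those 140. In that library 0 of the 150 and 56 of the 140 were at 5 CPM or more, against 25.4% of all records. In 8 hpf 2012_18 the medians were 10.7 CPM for the late transcripts and 17.2 CPM for the 140. In 8 hpf 2012_N8B they were 23.7 and 19.6 CPM, in 2 hpf 2012_N6 20.3 and 12.96 CPM, and in 6 hpf 2012_N2 11.5 and 15.0 CPM. The late transcripts were thus well below the 140 in 6 hpf 2012_23, 1 library that took no part in the choice. In 7 hpf 2012_N1 both sets were low, at 0.335 and 0.622 CPM. The late transcripts were also lower in 8 hpf 2012_18, and whether they start later was not tested. The difference between the sets was not tested.

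**Figure D5:**
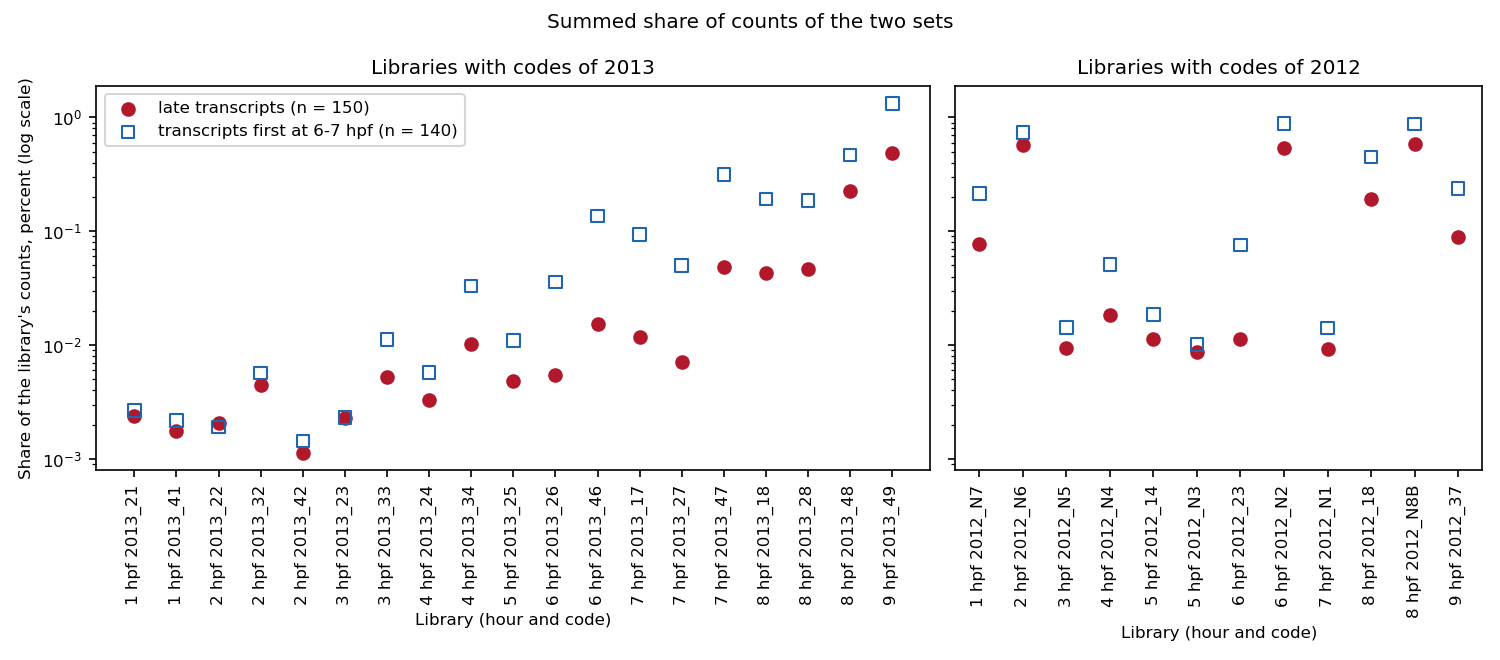
Summed share of each library's counts, in percent on a log scale, of the 150 late transcripts (filled circles) and of the 140 transcripts first at 5 CPM at 6-7 hpf (open squares). In the libraries of 2013 the sets are close at 1 to 3 hpf and lie farthest apart at 6 and 7 hpf. In 8 hpf 2012_N8B they take 0.584% and 0.875%, and in 6 hpf 2012_23 0.0112% and 0.0757%.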

How the data were processed

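The authors deposited a table of whole-number read counts for 31067 transcript records in 31 libraries, with the length of each record. Bowtie2 and SAMtools were used, per the submitters' processing notes, but versions, reference and way of counting are not given in the sources available here. Counts of near-identical records are therefore uncertain. The deposited RPKM table was not used. CPM was computed as the count over the library's total, and RPKM from the counts with each library's own total. The 3 hpf library whose title and description give different codes was taken by its description, which names its column (2013_23).

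The members and lists were chosen with earlier results of these data known. Tests were run on the counts of the 12 libraries of 2012 with edgeR 4.0.16 in R 4.3.3 (filterByExpr, TMM factors, quasi-likelihood fit with 5 periods: 1, 2-3, 4-5, 6-7 and 8-9 hpf) and Benjamini-Hochberg adjustment, with a threshold of 0.05. SE is the absolute log2 fold change over the square root of F. The common biological coefficient of variation was 0.831. DESeq2 1.42.0 and limma 3.58.1 were alternatives. Named transcripts are at most 2 per pattern: the highest, most and least changed from 8 to 9 hpf, longest, shortest, most even, most alike, nearest to the bound, highest at 2-5 hpf of 2012, and smallest p. Others are said to be chosen after their values were seen. There are no molecular identifiers, so intervals and floors cover counting error only.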

Additional observations from a re-analysis of the deposited data

Results flagged for a closer look

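Libraries far from the others of their hour were looked for in the hours with 4 or 5 libraries, 2, 6, 7 and 8 hpf, by Dixon's 95% limit, which chance alone passes in about 1 of 20 groups. The libraries of 2013 in these hours entered the choice, which held them low up to 7 hpf, so the distances are a description and no test is read from them. At 2 hpf, 2012_N6 stood apart in the share of counts taken by the late transcripts (0.576%, the nearest other library at 0.00447%), in their median (20.3 CPM against 0.0965 CPM), and in Mle_028540 (294 CPM) and Mle_022862 (109 CPM). At 6 hpf, 2012_N2 stood apart in the same values, with a share of 0.541% against 0.0153%, a median of 11.5 CPM against 0.813 CPM, 932 CPM of Mle_028540 and 68.1 CPM of Mle_022862. At 7 hpf, 2013_47 stood apart with a share of 0.0486% against 0.0117%, a median of 3.14 CPM against 0.553 CPM and 6.07 CPM of Mle_028540. At 8 hpf, 2012_N8B stood apart in Mle_028540 alone, at 176 CPM against 13.4 CPM.

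The share of counts of the late transcripts at 9 hpf was 4.63 times the mean share at 8 hpf in the libraries of 2013 and 0.228 times in those of 2012. Each year has 1 library of 9 hpf, which lay above all 3 of 8 hpf in 2013 and below both in 2012, and the choice favoured transcripts that are high in that of 2013. The difference between the years was not tested.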

How the results depend on the processing

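The count of 0 late transcripts past the threshold between 8-9 and 6-7 hpf in 2012 stayed at 0 without any 1 of the 12 libraries, and was 0 with 4 left out together and over all 31 libraries with the code year as a term, 2 with DESeq2 and 105 with 5 left out. Against 2-5 hpf it stayed at 0 without any 1 library, and became 1 with DESeq2, 116 with 4 libraries left out, 147 with 5 left out and 150 over all 31 libraries, a fit that holds the libraries of the choice and called 7435 of all 21898 tested higher. The counts stayed at 0 with RLE factors, library totals, no filter, limma on either RPKM scale, subtraction of the shared counts, 2012_N7 and 2012_N4 left out, and code series as a term. The cause was not tested. With 4 libraries left out 2012_N6 was among them, and with 5 left out also 2012_N2. Both carried the late transcripts, so the counts without them are no independent test. No full code is shared between hours, though codes of one code series are found at several hours.

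The number that met the rule, 279, was 157 with TMM factors in CPM, 663 at a level of 3 CPM, 78 at a level of 10 CPM, 114 with a ceiling of 1 CPM, and 2 over all 31 libraries, 0 of them among the 150. With 1 library of 2013 left out at a time it was between 150 and 392, the lowest without 9 hpf 2013_49 and the highest without 7 hpf 2013_47, which kept 84 of the 150. It was 248 with RLE factors, 295 with medians and 240 with RPKM, which kept 116, 75 and 62 of the 150.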
